A study of Mus musculus with 5 samples.

Results

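The genes for mitochondrial ribosomal proteins were examined in the E11.5 mouse forelimb, in embryos lacking Sost and Sostdc1 and in wild type embryos. The members were all probe sets whose platform gene symbol starts with Mrpl or Mrps, which gave 156 of 45037 probe sets and 76 of 18193 measured genes, 47 with the large subunit prefix Mrpl and 29 with the small subunit prefix Mrps. RefSeq lists 78 protein-coding genes with these prefixes, and the other 2, Mrpl30 and Mrpl53, had only probe sets shared with another symbol. Each gene was represented by its brightest probe set, the one with the highest mean over the 5 arrays, and its other probe sets served as a check.

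RNA was measured on 5 single-channel arrays, 2 from double mutants (genotype Sost-/- with Sostdc1-/-) and 3 from wild type embryos, all on the C57Bl/6 background and with embryos not pooled per the labels. How the alleles were made was not given in the sources used here. Sost and Sostdc1 encode secreted antagonists of Wnt signalling, and the series concerns the number of digits. The 1 comparison of the design asks how the forelimb transcriptome differed without them.

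Mitochondrial ribosomes sit at the inner mitochondrial membrane and translate the few proteins encoded by mitochondrial DNA, all of them core parts of the respiratory chain and ATP synthase. Their RNA comes from mitochondrial DNA, while their proteins come from nuclear genes, are made in the cytosol and are imported. The nuclear genes encode homologs of bacterial ribosomal proteins and proteins found only in mitochondrial ribosomes. A few names depart from the structure: the products of Mrps30 and Mrps18a are placed in the large subunit, and that of Mrps36 belongs to a dehydrogenase complex.

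Most members were at nearly the same level in both genotypes, and those that differed went in both directions. Against wild type, 5 of 76 genes rose and 9 fell in double mutants at an adjusted p under 0.05, with 26 at an unadjusted p under 0.05. Over all 18193 genes 6.56% rose and 8.14% fell, so that the members' share called (18.4%) lay beside 14.7% of all genes and 21.0% of the 11537 genes above the median level, where all 76 members lay. The median log2 difference (double mutant minus wild type) of the members was -0.04, against -0.02 over all genes. Differences ran from -0.81 for Mrpl37 to 0.59 for Mrpl45, and 0 of 76 members differed by 2-fold or more, against 2.89% of all genes and 3.75% of the genes above the median level. In 55 of 76 members (72.4%) the difference lay within 0.2 on the log2 scale, which held for 58.5% of all genes and 48.0% of those above the median level. These shares describe the list and were not tested against one another. In bulk RNA, fewer cells of a type and less RNA per cell cannot be told apart.

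**Figure D1:**
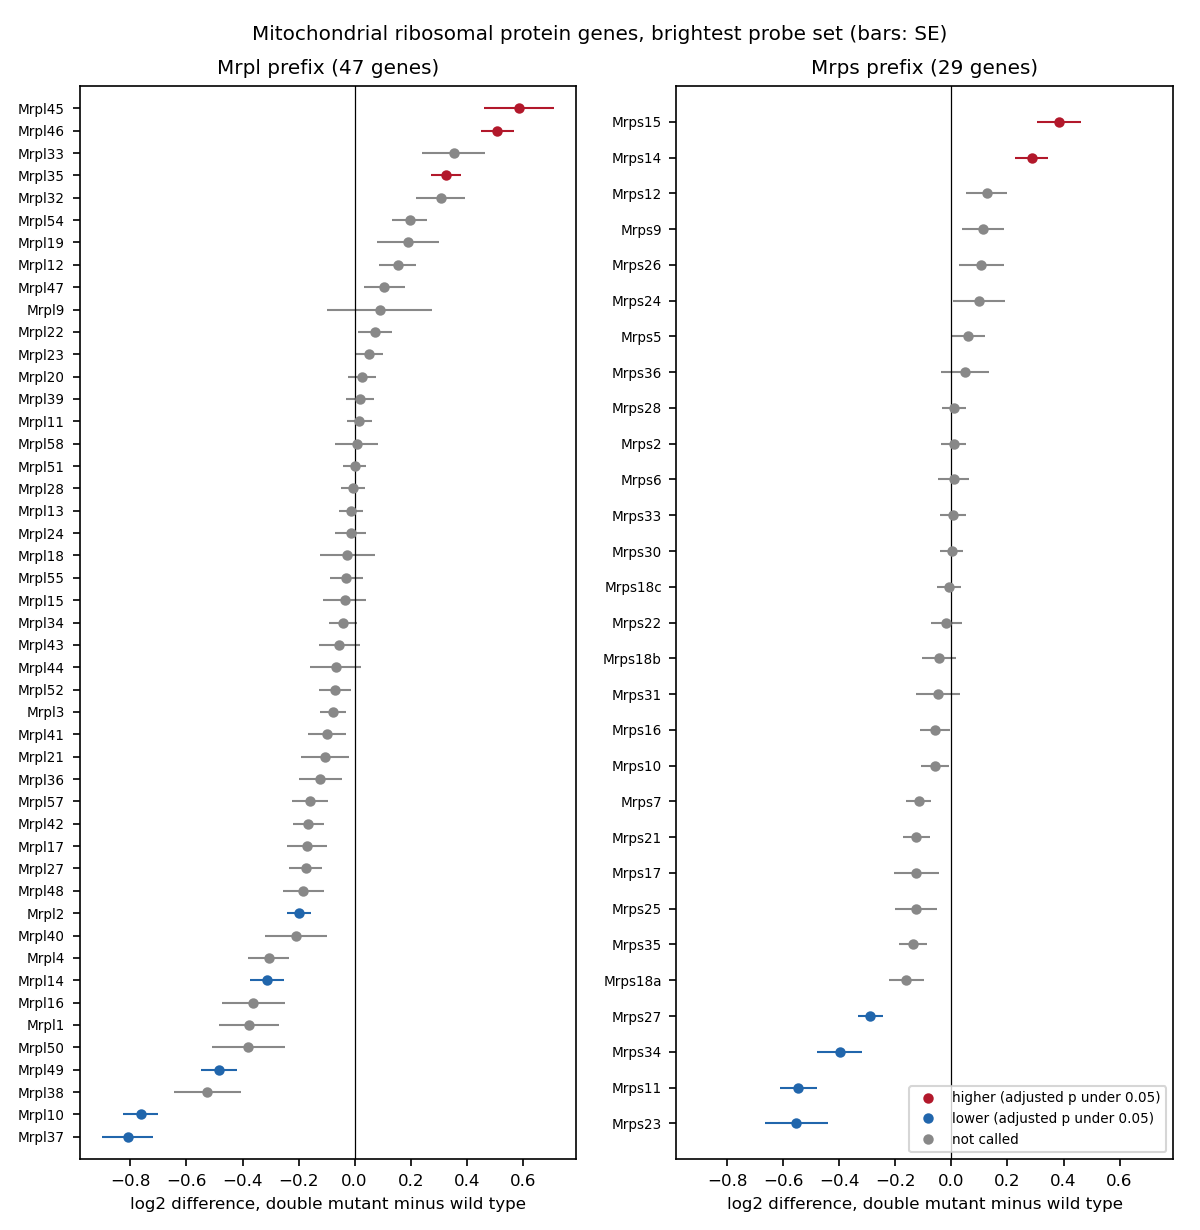
Log2 difference (double mutant minus wild type, x axis) of each of the 76 genes on its brightest probe set, with limma's SE as bars, in 47 Mrpl genes (left) and 29 Mrps genes (right). The 5 genes called higher reach 0.59 (Mrpl45), the 9 called lower reach -0.81 (Mrpl37), and most others lie close to 0.

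**Figure D2:**
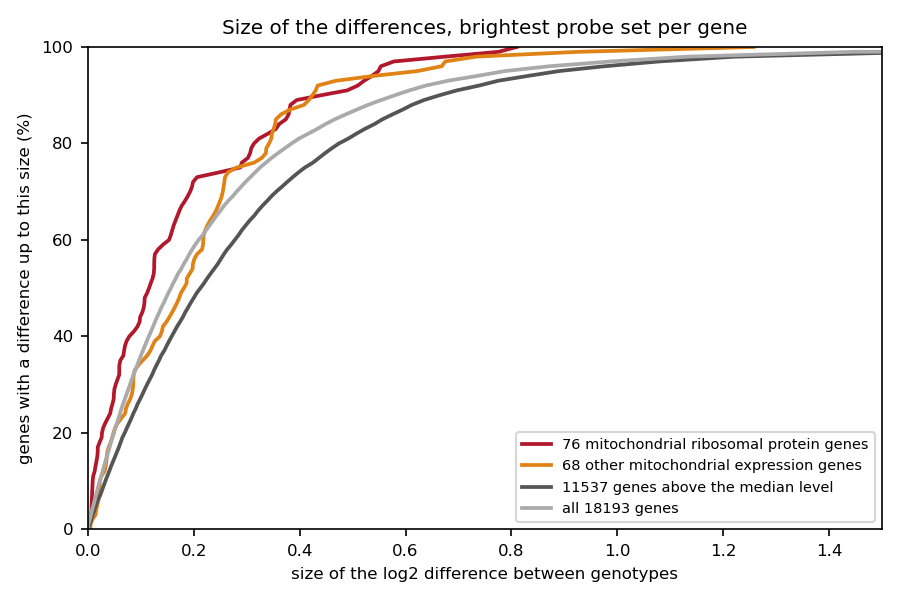
Share of genes (y axis, percent) whose log2 difference between the genotypes is at most the size on the x axis, for 76 members, 68 other genes of mitochondrial gene expression, 11537 genes above the median level and all 18193 genes. The members' curve reaches 72.4% at a size of 0.2 and ends below 1, the mark of a 2-fold change.

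Calls over the whole array, the members' included, depended on single arrays. Without double mutant replicate 1 or wild type replicate 2, limma called 0 of all 45037 probe sets (14059 and 11115 at an unadjusted p under 0.05) and so 0 members, with 28 and 17 members at that unadjusted p. Without double mutant replicate 2 there were 0 members higher and 3 lower, beside 8.50% of all probe sets called. Without wild type replicate 1 there were 2 higher and 1 lower, beside 6.53%, and without wild type replicate 3 there were 1 higher and 4 lower, beside 11.3%. With all 5 arrays 18.2% of probe sets were called. With array medians made equal, which moved the median over all probe sets to -0.10, 2 members were higher and 10 lower.

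Several, though not all, technical measures of the samples differed between the groups. The bacterial poly-A spike-in Dap, which is added to RNA before labelling, averaged 7.09 ± 0.27 (SD, n = 2, log2 intensity) on the mutant arrays against 3.30 ± 0.06 (SD, n = 3) on the others. The 3' minus 5' difference of the Gapdh control probe sets, a readout of transcript integrity and labelling, was 0.21 ± 0.08 and -0.10 ± 0.04 (exact permutation p = 0.1, two-sided, the smallest that 10 splits allow). The same readout from Actb did not separate the groups, at 0.65 and 0.56 in double mutants against 0.20, 0.24 and 0.68 (exact permutation p = 0.4, two-sided). Signal of the controls for hybridization was lower on both mutant arrays than on every wild type array. The mean log2 difference was -0.41 for BioB, -0.39 for BioD and -0.27 for Cre (exact permutation p = 0.1 each, two-sided). For BioC it was -0.28 (exact permutation p = 0.2, two-sided). Preparation, hybridization and genotype cannot be told apart here. Both double mutant arrays also held high signal of Xist (12.37 and 11.75), made from the inactive X chromosome, and of the Y-linked gene Eif2s3y (8.36 in each), whereas each wild type array was high for 1 of the 2. The signal of both genes in each double mutant sample goes against the label that embryos were not pooled, as far as RNA of 1 embryo is meant, so that how many embryos stand behind n = 2 is uncertain. Of the marker lists, limb mesenchyme was above the median level for 8 of 8 genes, including the forelimb gene Tbx5, with 1 of 8 called higher (Meox2) and a summed level (log2 of summed intensities) of 14.22 to 14.25 in the mutants against 14.12 to 14.19. Endothelial genes were called lower for 5 of 8, with a summed level of 10.61 to 10.64 in the mutants against 11.08 to 11.19, and erythroid genes for 3 of 7, at 15.45 to 15.62 and 15.65 to 15.75. Surface ectoderm genes were called higher for 4 of 9, at 12.47 to 12.50 and 11.95 to 12.10. Of the macrophage list 0 of 8 were called (9.80 to 10.05 and 10.09 to 10.29), of the myogenic list 1 of 7, lower (10.93 to 11.25 and 11.36 to 11.55), and of the neural crest list 0 of 4 (9.39 to 9.80 and 9.44 to 9.73). The part of these differences in the results below was not tested. The targeted gene Sost was lower on its brighter probe set (4.29 ± 0.19 and 6.47 ± 0.28), and Sostdc1 on its dimmer one (6.82 ± 0.76 and 9.17 ± 0.24), with its brighter one at 8.93 and 8.89. Where the probe sets lie relative to the deletions was not known here.

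Upstream sequences of the genes with the largest differences are shown first, because mitochondrial ribosomal protein genes are known for compact promoters that are often shared with a neighbour. They were taken from RefSeq's promoter windows of GRCm38.p6 (250 bases before to 50 after the start of transcription), which held 67 of the 76 members. Each is printed 5′ to 3′ on the gene's own strand, ending at the base before the start, over 150 bases or as far as the start of a neighbour transcribed the other way. Capitals mark a match to the ETS letters or their reverse complement, which 1 of the 5 stretches holds. The first 2 belong to the largest falls, the next 2 to the largest rises, and Mrps27, a called fall, is the 1 other called member with an ETS, YY1 or NRF1 match in such a stretch.
Mrpl37, chr4:107066867-107066993, minus strand: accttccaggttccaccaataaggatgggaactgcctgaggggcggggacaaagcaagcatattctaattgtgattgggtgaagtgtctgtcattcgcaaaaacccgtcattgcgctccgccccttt
Mrpl10, chr11:97041432-97041581, plus strand: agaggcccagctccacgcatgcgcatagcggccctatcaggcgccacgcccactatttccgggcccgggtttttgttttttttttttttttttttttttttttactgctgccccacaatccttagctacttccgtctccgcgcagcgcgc
Mrpl45, chr11:97315566-97315715, plus strand: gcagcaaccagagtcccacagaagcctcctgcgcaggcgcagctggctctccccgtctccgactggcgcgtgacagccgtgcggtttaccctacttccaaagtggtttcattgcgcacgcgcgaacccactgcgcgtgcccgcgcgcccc
Mrpl46, chr7:78783090-78783130, minus strand: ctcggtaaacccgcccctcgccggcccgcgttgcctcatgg
Mrps27, chr13:99344679-99344785, plus strand: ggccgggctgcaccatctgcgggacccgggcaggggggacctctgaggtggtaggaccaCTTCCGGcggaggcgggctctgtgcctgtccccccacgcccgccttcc

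Across the 67 members with a window, 25 (37.3%) held the ETS letters CCGGAAG on either strand, against 9.93% of 27025 genes with a window. ETS factors such as GABP are known regulators of mitochondrial genes. The YY1 letters AAGATGGC were in 12 members (17.9%, against 3.19%), and the palindromic NRF1 motif in 3 (4.48%, against 1.07%). The letters TATAAA were in 5 members (7.46%, against 15.7%). The ETS letters end in the AAG that begins the YY1 letters, so that 1 stretch can match both. ETS was in 0 of 5 called-higher, 2 of 8 called-lower and 23 of 54 uncalled members, and YY1 in 1 of 5, 4 of 8 and 7 of 54. The 4 called-lower members with YY1 letters were Mrpl37, Mrpl49, Mrps11 and Mrps27. In Mrpl37, Mrpl49 and Mrps27 the match lay after the start of transcription, beginning at bases 27, 17 and 15. In Mrps11 it began 107 bases before the start, beyond the start of the neighbour Mrpl46, 42 bases away. A match is a description of the letters in the window, and the counts were not tested.

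Among the genes with the large subunit prefix 3 of 47 rose and 5 fell (17.0% called, beside 14.7% of all genes). The largest fall was that of Mrpl37, a protein specific to mitochondrial ribosomes, which measured 8.50 and 8.66 on the 2 mutant arrays and 9.48, 9.42 and 9.28 on the 3 wild type ones (log2 intensity). Its level in double mutants was 57.0% of wild type, a log2 difference of -0.81 ± 0.09 (SE, limma adjusted p = 0.0124). Every double mutant array lay below every wild type array, by well over the spread within either group. With the Gapdh 3' minus 5' difference as a covariate the Mrpl37 difference was -0.24 (adjusted p = 0.763), in a fit whose covariate separates the genotypes and which called 0 of all probe sets (4259 at an unadjusted p under 0.05).

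Mrpl10 forms the base of the stalk that recruits translation factors, and Mrpl12 forms the stalk itself. Mrpl10 measured 8.74 and 8.88 on the mutant arrays and 9.59, 9.59 and 9.54 on the wild type ones, a log2 difference of -0.76 ± 0.06 (SE, limma adjusted p = 0.00815). This was the smallest adjusted p among the brightest probe sets of the 76 genes, and the call held in 7 of 11 other fits. Mrpl12 measured 10.99 and 11.12 on the mutant arrays and 10.84, 10.93 and 10.93 on the wild type ones, higher by 0.15 ± 0.07 (SE, adjusted p = 0.208). The stalk pair therefore had 1 member lower and 1 not called, though their groups did not overlap in either case. Non-overlap held for 39 of 76 members (51.3%), beside 43.2% of all genes and 56.1% of those above the median level.

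The other large subunit genes that fell were Mrpl49, Mrpl14 and Mrpl2. Mrpl49, also specific to mitochondria, measured 9.77 and 9.75 on the mutant arrays and 10.31, 10.26 and 10.16 on the wild type ones (-0.48 ± 0.06, SE, limma adjusted p = 0.0167). Its second probe set, a little dimmer, was level across the arrays (9.35 and 9.33 against 9.43, 9.33 and 9.32), so that the fall was seen on 1 of its 2 probe sets. Mrpl14, a homolog of a bacterial protein at the face between the subunits, measured 9.52 and 9.64 on the mutant arrays and 9.85, 9.92 and 9.91 on the wild type ones (-0.31 ± 0.06, adjusted p = 0.0373). Mrpl2, a homolog of a bacterial protein near the peptidyl transferase centre, measured 10.81 and 10.82 against a wild type mean of 11.01 ± 0.01 (SD, n = 3) (-0.20 ± 0.04, adjusted p = 0.0453). Its difference was small but its arrays were tight, and it was called in 1 of 11 other fits.

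Rises in the large subunit were those of Mrpl45, Mrpl46 and Mrpl35. Mrpl45, which lies by the exit of the peptide tunnel and contacts the inner membrane, measured 10.19 and 10.29 on the mutant arrays and 9.85, 9.50 and 9.61 on the wild type ones (0.59 ± 0.12, SE, limma adjusted p = 0.0455). Mrpl46, of the central protuberance, measured 10.14 and 10.09 against 9.54, 9.59 and 9.67 (0.51 ± 0.06, adjusted p = 0.0133). Mrpl35 measured 10.85 and 10.79 against 10.52, 10.52 and 10.44 (0.33 ± 0.05, adjusted p = 0.0251). Its dimmer probe sets differed by 0.19 and -0.18 (adjusted p = 0.356 and 0.243), so that the rise was called on 1 of its 3. In all 3 genes both double mutant arrays lay above all wild type arrays on the brightest probe set. Of the 6 members by the tunnel exit (Mrpl22, Mrpl23, Mrpl24, Mrpl44, Mrpl45 and Mrpl47), Mrpl45 was the 1 called. Of the 6 of the central protuberance (Mrpl18, Mrpl27, Mrpl38, Mrpl40, Mrpl46 and Mrpl48), Mrpl46 was the 1 called, and the other 5 had differences below 0, down to -0.53 for Mrpl38 (adjusted p = 0.0535). With equal array medians, Mrpl45 and Mrpl46 were still called and Mrpl35 was not (0.24, adjusted p = 0.119).

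**Figure D3:**
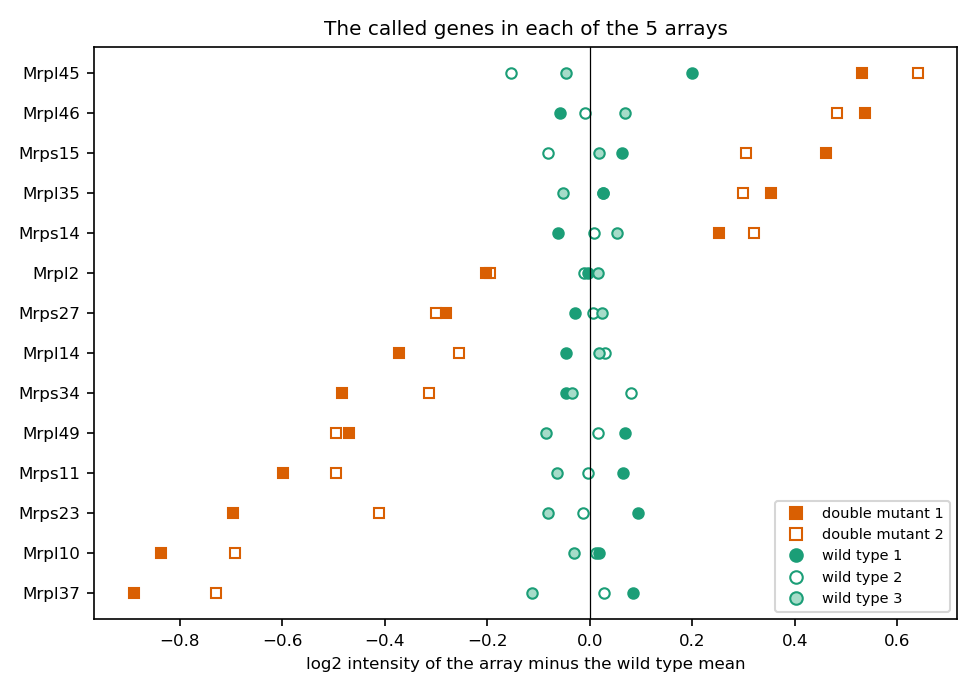
Log2 intensity of each array minus the wild type mean (x axis) for the 14 called genes, with 2 double mutant arrays as squares and 3 wild type arrays as circles. In each gene the squares lie to 1 side of all circles, to the right for 5 genes and to the left for 9.

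Among the genes with the small subunit prefix 2 of 29 rose and 4 fell (20.7% called, beside 14.7% of all genes). Mrps11, homologous to a bacterial protein of the small subunit platform, measured 9.38 and 9.48 on the mutant arrays and 10.04, 9.97 and 9.91 on the wild type ones (-0.55 ± 0.07, SE, limma adjusted p = 0.0141). Mrps23, specific to mitochondria, measured 8.98 and 9.26 against 9.77, 9.66 and 9.59 (-0.55 ± 0.11, adjusted p = 0.0411). Its second probe set was level, at 9.04 in both double mutant arrays and at 9.04, 9.03 and 9.07 in wild type. The Mrps23 difference turned to 0.23 (adjusted p = 0.740) with the Gapdh 3' minus 5' covariate, the 1 called member to change sign in the 11 other fits.

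Mrps34, needed in mouse for a stable small subunit, measured 9.99 and 10.16 on the mutant arrays and 10.42, 10.55 and 10.44 on the wild type ones (-0.40 ± 0.08, SE, limma adjusted p = 0.0405). A probe set shared by Mrps34 and its neighbour Nme3, not counted here, was called higher (0.29 ± 0.05, adjusted p = 0.0277). Mrps27, a pentatricopeptide repeat protein, measured 8.78 and 8.76 against 9.03, 9.07 and 9.09 (-0.29 ± 0.04, adjusted p = 0.0225). The falls of Mrps27 and Mrpl14 were not called under quantile normalization (adjusted p = 0.0630 and 0.0658).

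Mrps15 was the 1 member with 2 probe sets called the same way. On the brighter it measured 10.76 and 10.61 on the mutant arrays and 10.36, 10.22 and 10.32 on the wild type ones (0.38 ± 0.08, SE, limma adjusted p = 0.0420), and on the second 10.38 and 10.58 against 9.95, 9.97 and 10.04 (0.50 ± 0.08, adjusted p = 0.0253). Its dimmest probe set was at 0.58 ± 0.24 (adjusted p = 0.194). Mrps14 measured 11.69 and 11.75 against 11.37, 11.44 and 11.49 (0.29 ± 0.06, adjusted p = 0.0419). The dimmer Mrps14 probe sets differed by 0.19 and 0.34 and were not called (adjusted p = 0.113 and 0.0856). Mrps15 and Mrps14 are homologs of bacterial small subunit proteins. On their brightest probe sets neither gene was called with equal array medians (adjusted p = 0.0896 and 0.260).

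By origin, 3 of 46 homologs of bacterial proteins rose and 4 fell (15.2% called), with a median of -0.01. Among the other 30 members, largely specific to mitochondria, 2 rose and 5 fell (23.3% called), with a median of -0.07. Over all genes 14.7% were called, and 21.0% over those above the median level. These shares were not tested against one another. The 3 paralogs Mrps18a, Mrps18b and Mrps18c, which derive from 1 bacterial protein and occupy different sites, differed by -0.16, -0.04 and -0.01 with none called. Of 12 members whose human counterparts are linked to mitochondrial disease (25% called), Mrps14 rose, Mrps23 and Mrps34 fell and 9 were not called. Those 9 included Mrps22 (10.75 and 10.87 on the mutant arrays against 10.84, 10.82 and 10.82) and Mrps16 (11.05 and 10.95 against 11.04, 11.05 and 11.09), whose arrays overlapped. The remaining uncalled ones of this list, Mrpl3, Mrpl12, Mrpl44, Mrps2, Mrps7, Mrps25 and Mrps28, differed by -0.13 to 0.15. Mrpl51 had the same value, 11.43, in all 5 arrays, and for 36 of 76 members some 2 arrays shared a value, as for 21842 of the 45037 probe sets.

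Of all 156 member probe sets, 14 were called higher and 11 lower (16.0%), beside 8.70% higher, 9.52% lower and 18.2% in either direction over all 45037. Without double mutant replicate 1 or wild type replicate 2 limma called 0 of them (55 and 35 at an unadjusted p under 0.05), as it called 0 of all 45037, and without each other array in turn 5 to 7 were higher and 2 to 5 lower. The members' probe sets other than the brightest had a median difference of 0.07, against -0.04 for the other probe sets of all genes. Of 80 such probe sets in 42 genes, 9 were called higher (beside 8.66% of the other probe sets of all genes) and 2 lower (beside 15.0%). Of the 80, 6 differed by 2-fold or more (7.5%, against 17.3% of the other probe sets of all genes), and 5 of these were higher. Of 94 member probe sets with a mean over 9, 0 differed by 2-fold, against 4.72% of all probe sets in that range. Of 25 member probe sets between 5 and 7, 4 did (16.0%), against 25.4% of all probe sets in that range.

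The strongest rises on these dimmer probe sets were those of Mrps21 and Mrpl15. On its second probe set Mrps21 measured 6.82 and 6.49 on the mutant arrays and 4.49, 4.18 and 3.95 on the wild type ones (2.45 ± 0.20, SE, limma adjusted p = 0.00805), while the brightest differed by -0.13. Mrpl15, with 8 probe sets, measured 7.80 and 7.50 on the seventh against 5.48, 5.25 and 4.93 (2.43 ± 0.20, adjusted p = 0.00811), fell on the fifth (-0.43 ± 0.07, adjusted p = 0.0253) and was level on the brightest (-0.04 ± 0.08). Mrpl13 rose on its dimmest probe set (1.88 ± 0.21, adjusted p = 0.0120) from a wild type level of 3.60, near that of Trpn, a control for an absent transcript (3.07), and its brightest differed by -0.01.

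Mrps2 went the other way. On its brighter probe set it measured 10.21 and 10.25 on the mutant arrays and 10.21, 10.21 and 10.24 on the wild type ones, and on its dimmer one 6.03 and 6.39 against 8.34, 8.37 and 8.11 (-2.07 ± 0.15, SE, limma adjusted p = 0.00723). One gene thus gave overlapping groups on one probe set and a drop to 23.8% of wild type on the other. Mrps11, lower on its brightest probe set, rose on its second, at 6.25 and 5.97 against 4.49, 4.48 and 4.72 (1.55 ± 0.13, adjusted p = 0.00802). Mrpl15 and Mrps11 were the 2 of 42 genes with calls in opposite directions, which held for 5.05% of the 9010 genes with several probe sets. Smaller rises were called on other probe sets of Mrpl21 (0.75), Mrpl3 (0.62), Mrpl54 (0.46) and Mrps9 (0.19). That of Mrpl54 started from a wild type level of 3.84, near that of Trpn (3.07). The dimmest Mrps9 probe set differed by 1.42 ± 0.35 (SE, limma adjusted p = 0.0652) and was not called. In 8 of the 42 genes the brightest probe set was not called and another was, and the matching share over all genes is not given here. Of the members' 80 other probe sets 13.8% were called, against 23.6% of the other probe sets of all genes. Which transcript each probe set reports was not tested.

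**Figure D4:**
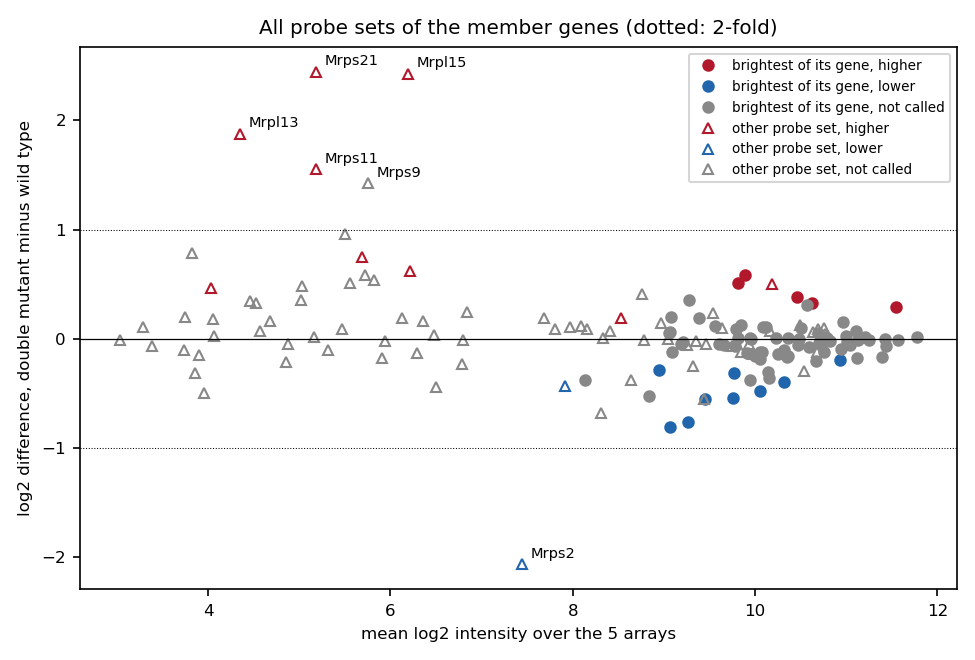
Log2 difference (double mutant minus wild type, y axis) against mean log2 intensity over the 5 arrays (x axis) for all 156 member probe sets, circles for the brightest of a gene and triangles for the others. The dotted lines mark 2-fold, which 0 of the circles and 6 of the triangles pass, 5 of them upward and Mrps2 downward.

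Many members start close to a gene transcribed the other way. A start on the opposite strand within 1000 bases upstream was found for 25 of 67 members (37.3%), against 12.3% of 27025 genes with a window. All 25 partners were measured, and 6 were called higher and 3 lower, beside 6.56% and 8.14% of all 18193 genes. The called partners include Mrpl46 and Mrps11, which are members themselves. The partners' share was not tested against that of all genes. Mrpl46 and Mrps11 are partners of each other: their starts lie 42 bases apart on chromosome 7, and the 41 bases between them are the whole Mrpl46 stretch shown above. From this shared interval the 2 genes went opposite ways, Mrpl46 up by 0.51 ± 0.06 (SE, limma adjusted p = 0.0133) and Mrps11 down (-0.55 ± 0.07, SE, adjusted p = 0.0141), each on its brightest probe set. The dimmer Mrps11 probe set, which rose, went the same way as Mrpl46.

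Mrpl14 fell (-0.31) while Tmem63b, which starts 131 bases away, rose by 0.72 ± 0.13 (SE, limma adjusted p = 0.0313). Hira, a histone chaperone gene beside Mrpl40, rose from 7.16 to 8.66 (means, adjusted p = 0.0295), and Gga3, beside Mrps7, by 0.79 ± 0.10 (adjusted p = 0.0142). Ncapd2, a condensin gene beside Mrpl51, rose by 0.65 ± 0.09 (adjusted p = 0.0185). The largest rise was that of 2610507I01Rik beside Mrpl55 (2.51 ± 0.15, adjusted p = 0.00628). Mrpl40, Mrps7, Mrpl51 and Mrpl55 themselves were not called (-0.21, -0.12, 0.00 and -0.03). Eme1 beside Mrpl27 (-0.61 ± 0.07, adjusted p = 0.0130) and Tcp1 beside Mrpl18 (-0.27 ± 0.06, adjusted p = 0.0463) were lower, and both of those members had uncalled differences below 0 (-0.17 and -0.03). The partners of Mrpl37, Mrpl49, Mrpl2 and Mrps27, which all fell, were not called.

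**Figure D5:**
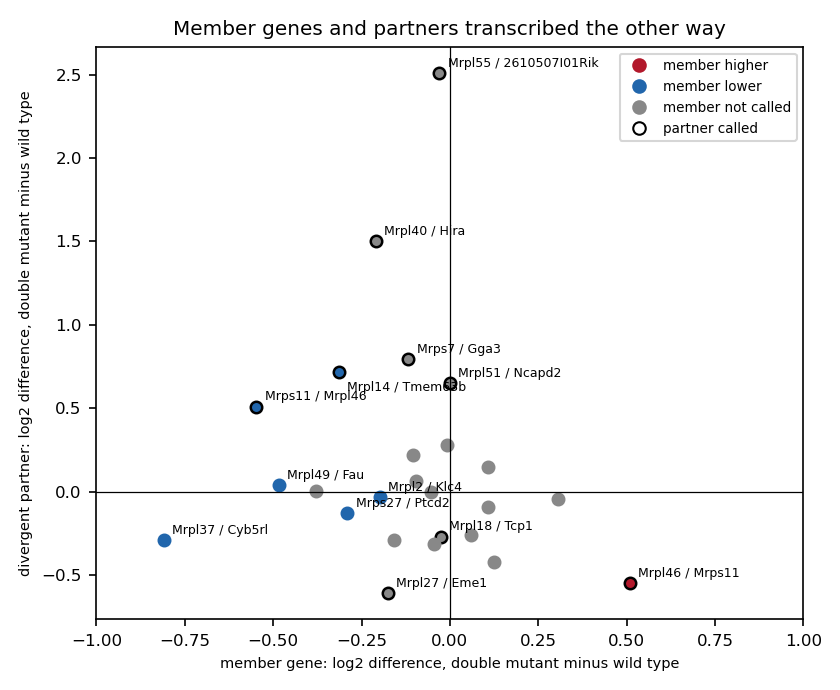
Log2 difference (double mutant minus wild type) of the divergent partner (y axis) against that of the member gene (x axis) for the 25 members with a start on the other strand within 1000 bases, with a black rim where the partner was called. Mrpl46 and Mrps11, plotted once each as member, lie in opposite quadrants at 0.51 and -0.55.

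The rest of the machinery for expressing mitochondrial DNA was mixed as well. Of 68 measured genes in 5 lists, 5 rose and 5 fell (14.7%), with a median of 0.04. The share called was also 14.7% over all 18193 genes, and 21.0% over those above the median level. Of the 68 genes, 66 lay above that level. Oxa1l was the 1 gene to differ by 2-fold or more (1.47%, against 2.89% of all genes). Of the 60 other probe sets of the 68 genes, 12 were higher and 6 lower (30%), with 8 at 2-fold or more (13.3%). Over the other probe sets of all genes, 8.66% were higher and 15.0% lower (23.6% called), with 17.3% at 2-fold or more. Among 4 proteins of the mitochondrial ribosome without the prefix, Chchd1 rose by 0.35 ± 0.04 (SE, limma adjusted p = 0.0147) and Ptcd3 by 0.22 ± 0.05 (adjusted p = 0.0427), and Dap3 and Gadd45gip1 were not called (0.12 and 0.02).

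Of 13 translation factors and related proteins, 1 rose and 3 fell. This share called (30.8%) was not tested against the 14.7% of all genes or the 21.0% of those above the median level. Oxa1l, which inserts newly made proteins into the inner membrane and binds the mitochondrial ribosome, measured 8.34 and 8.27 on the mutant arrays and 9.58, 9.61 and 9.49 on the wild type ones (-1.26 ± 0.06, SE, limma adjusted p = 0.00527). Gfm2, an elongation factor family member for ribosome recycling, fell by 0.68 ± 0.10 (adjusted p = 0.0189), and the elongation factor gene Tufm by 0.35 ± 0.07 (adjusted p = 0.0426). The initiation factor gene Mtif2 rose by 0.36 ± 0.05 (adjusted p = 0.0218). On brightest probe sets, the fall of Oxa1l was thus larger than that of any of the 76 members. Oxa1l had 3 probe sets, and those other than the brightest are not given singly here.

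Of 23 assembly and rRNA modification factors 1 was called (4.35%), Mpv17l2, lower by 0.76 ± 0.10 on the log2 scale (SE, limma adjusted p = 0.0176, difference -0.76). Of 16 mitochondrial aminoacyl-tRNA synthetases (12.5% called) Vars2 rose by 0.66 ± 0.10 (adjusted p = 0.0231) and Aars2 fell by 0.43 ± 0.07 (adjusted p = 0.0279). Of 12 genes for transcription and upkeep of mitochondrial DNA (8.33% called), Mterf2 rose by 0.44 ± 0.08 (adjusted p = 0.0294). Tfam (0.25, adjusted p = 0.252) and the polymerase gene Polrmt (-0.02) were not called. With equal array medians the 68 genes had 2 higher and 9 lower. Without double mutant replicate 1 or wild type replicate 2 limma called 0 of the 68 (27 and 16 at an unadjusted p under 0.05), as of all probe sets, and without each other array in turn 1 to 6 were higher and 1 to 3 lower.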

How the data were processed

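The deposited values were linear intensities of probe sets, judged from their range. RMA and limma appear in the submitters' processing notes without version, role or settings. Array medians were 44.4 and 42.1 in double mutants and 41.7, 40.6 and 39.4 in wild type, and no further normalization was applied. Of 45101 probe sets 64 controls were left out. The log2 of the deposited values went into limma 3.58.1 under R 4.3.3 (1 mean per genotype, empirical Bayes without trend, two-sided p), Benjamini-Hochberg adjusted over all 45037 probe sets and called under 0.05. With 2 and 3 arrays, their number limits the precision. The replicates are separate samples per the labels. Platform symbols named the genes, and 4 probe sets with a member and another symbol were left out. The median level of all probe sets was 5.41. The fit was tested on simulated data. The members, gene lists, motifs and alternatives were chosen with earlier results of these data known.

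Named were up to 12 called rises and 12 called falls whose groups did not overlap, members with opposite calls, the stalk, Mrps18 and disease-linked members, and up to 3 called genes per companion list. Partners, tunnel and protuberance members, Mrps21, Mrpl13, Mrps2 and other dim probe sets, Mrpl51, Mrps36, Mrps30 and the companion genes not called were named after their values were seen.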

Additional observations from a re-analysis of the deposited data

Results flagged for a closer look

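The bacterial poly-A spike-ins, which are outside the comparison of mouse genes, were above the wild type arrays in both double mutant arrays. Mean log2 intensity in double mutants was 7.09 for Dap, 5.23 for Thr, 5.35 for Phe and 4.86 for Lys, against 3.30, 3.50, 3.54 and 3.31 in wild type. The groups of 2 and 3 arrays were too small to look for single outlying arrays.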

How the results depend on the processing

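The groups do not overlap in any of the 14 called members, so leaving out an array could not turn a direction. With the Gapdh 3' minus 5' covariate Mrps23 stood at 0.23. With 1 array left out at a time, members called higher ranged from 0 to 2 and lower from 0 to 4, their probe sets higher from 0 to 7 and lower from 0 to 5, and companion genes higher from 0 to 6 and lower from 0 to 3. The Gapdh covariate separates the genotypes, and with it limma called 0 of all 45037 probe sets (4259 at an unadjusted p under 0.05), 0 members higher and 0 lower (3 at an unadjusted p under 0.05) and 0 of their probe sets in either direction (10 at that p), and the members' median was 0.024. With the replicate block, which left 5.22% of all probe sets called against 18.2%, the counts were 0 and 0 for members (13 at an unadjusted p under 0.05), 5 and 1 for their probe sets, and 0 and 1 for companion genes. The replicate numbers come from the sample titles, and whether they mark a pairing was not known here. Deviations of same-numbered arrays correlated at 0.0895 and 0.120. With 2 mutant arrays, the deviations of one mirror those of the other, so these correlations cannot decide the question. Equal array medians gave 2 members higher and a median of -0.13, beside -0.10 for all probe sets, and 2 companion genes higher and 9 lower. The mean of all probe sets gave 10 members higher. The second brightest probe set (42 genes) gave 1 lower and a median of 0.051, and probe sets without a shared-sequence suffix (62 genes) gave 5 lower and a median of -0.0066. The cause was not tested. The trend, quantile and level-filter settings kept member counts within 1.5 times.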
